A study of Mus musculus with 88 samples.

Results

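Neuropeptides reach the synapse by a route that sets them apart from classical transmitters, and 10 genes of that route were examined in nuclear RNA and γH2AX data from mouse brain. The genes were *Pcsk1*, *Scg2*, *Vgf*, *Chga*, *Chgb*, *Cck*, *Npy*, *Sst*, *Vip* and *Crh*. They were chosen by name as peptide precursors and processing genes, with earlier results of these data known. They were matched by symbol through the GENCODE vM21 annotation of GRCm38. All 10 were found among the 53749 gene rows of the count tables, and no other annotated gene overlapped any of the 10 gene bodies.

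Mice were C57BL/6J animals of 4 months, male according to the methods. Naive mice stayed in the home cage. Mice of the contextual fear conditioning (CFC) groups received foot shocks in a new chamber and were killed 10 minutes (CFC10) or 30 minutes (CFC30) after they had been placed there. Hippocampal (HIP) and medial prefrontal (mPFC) nuclei were fixed and sorted on NeuN, a protein of most neuronal nuclei, into NeuN+ and NeuN- fractions, with 4 libraries for each HIP group and 3 for each mPFC group. In a separate experiment mice received corticosterone, as a corticosterone:HBC complex in saline, at 2 mg/kg by intraperitoneal injection, or an equal volume of saline. They were killed 30 minutes later. Hippocampal nuclei of these animals were sorted into NeuN+, GFAP+ (astrocyte), PU.1+ (microglia) and 3X- (negative for all of these) populations, with 4 libraries for each group. ChIP-seq of γH2AX, a histone phosphorylation that marks DNA double-strand breaks, came from unsorted tissue of 3 pooled animals per replicate, naive or at CFC30.

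Peptide precursors enter the secretory pathway and are packed into dense core vesicles, a step in which the acidic granin proteins take part. Inside the vesicle, prohormone convertases cut the precursor at pairs of basic residues and carboxypeptidase E trims the ends. The finished peptides are released when a neuron fires strongly, and they act on G protein-coupled receptors over longer distances than fast transmitters. Several of these genes are textbook targets of CREB, a factor that cAMP and calcium signals activate and that binds the letters TGACGTCA (the cAMP response element) or its shorter form TGACG.

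Promoter sequence is shown first because 7 of the 8 promoters at hand hold these letters, those of genes that were called and of genes that were not. RefSeq gave a promoter for 8 of the 10 genes on GRCm38.p6, taken as 250 bases before to 50 bases after the RefSeq start. *Vgf* and *Crh* had no entry, and the *Npy* promoter held neither form. The 30-base windows below read 5′ to 3′ on the strand of the gene, and capitals mark the 8 letters or the shorter form in either orientation.
*Pcsk1*: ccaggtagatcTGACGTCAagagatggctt
*Scg2*: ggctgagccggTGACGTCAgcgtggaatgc
*Chgb*: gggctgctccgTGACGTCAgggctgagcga
*Sst*: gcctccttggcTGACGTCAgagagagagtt
*Chga*: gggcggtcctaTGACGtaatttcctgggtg
*Vip*: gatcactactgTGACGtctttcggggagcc
*Cck*: gtcctgctggactgCGTCAgcactgggtaa

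On GRCm38 the windows are chr13:75089768-75089797 (plus strand) for *Pcsk1*, chr1:79440076-79440105 (minus) for *Scg2*, chr2:132781559-132781588 (plus) for *Chgb* and chr16:23890874-23890903 (minus) for *Sst*. The others are chr12:102554886-102554915 (plus) for *Chga*, chr10:5639128-5639157 (plus) for *Vip* and chr9:121495726-121495755 (minus) for *Cck*. The windows of *Scg2*, *Chgb* and *Sst* lie before the RefSeq start but inside the longer GENCODE gene body. The letters TGACGTCA stood in 4 of the 8 promoters, against 588 of 32851 promoters of the same length (1.79%). They lay 78 bases before the start in *Pcsk1*, 68 in *Scg2*, 72 in *Chgb* and 48 in *Sst*, counted to the first letter. The shorter TGACG, read on both strands and contained in the full motif, stood in 7 of 8 against 20.8% of all promoters, with the first letter 44 bases before the start in *Chga*, 79 in *Vip* and 47 in *Cck*. In *Cck* it lay on the opposite strand. The AP-1 letters TGANTCA (7.81% of all promoters) and the glucocorticoid receptor letters GNACA and TGTNC with 3 bases between them (0.475%) were in 0 of the 8, and the EGR letters GCGNGGGCG (5.55%) were in *Chgb* only. A match describes the letters and does not show a bound site.

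RNA values are counts over the whole gene body, introns included, scaled to library size (CPM) within a gene and to library size and gene-body length (FPKM) between genes. A gene was tested where its mean FPKM passed 0.2 in at least 1 group, and called at an adjusted p under 0.05 by the edgeR quasi-likelihood test with Benjamini-Hochberg adjustment over all genes tested. Depth ran from 5935395 to 18271372 counts per library over 73 libraries. HIP NeuN- naive replicates 3 and 4 held identical counts and were used as 1 library, which left 3. Summed CPM of 8 neuron markers separated the fractions, at 5230.87 to 5477.63 in HIP NeuN+ against 299.604 to 554.959 in NeuN-, and at 6025.23 to 6562.93 against 145.539 to 362.854 in mPFC. HIP and mPFC libraries were made with different versions of the kit, so levels between regions were not compared. Labels do not say whether replicates are single animals, so p-values measure the spread between libraries.

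In naive NeuN+ nuclei, the most abundant of the 10 per length was *Chgb*, a granin, in HIP and *Sst*, the somatostatin precursor, in mPFC. In HIP the mean FPKM was 7.14 ± 0.210 (SD, n = 4) for *Chgb*, 3.98 ± 0.501 for *Scg2* and 3.79 ± 0.905 for *Sst*. *Chga* followed at 2.73, *Cck* at 1.83, *Vgf* at 0.905 and *Pcsk1* at 0.322. *Vip* at 0.213, *Npy* at 0.150 and *Crh* at 0.057 closed the order. The ranges of mean ± SD overlapped for *Scg2* and *Sst*, for *Sst* and *Chga* and for *Vip* and *Npy*, and for no other neighbours. In mPFC *Sst* stood at 8.04 ± 2.35 (SD, n = 3) and *Chgb* at 7.18 ± 0.226, within the spread of *Sst*. *Chga* (3.33), *Cck* (3.16), *Scg2* (3.12) and *Vgf* (2.67) formed a middle group, in which *Scg2* overlapped both *Cck* and *Vgf* and *Chga* lay just above *Cck*. *Vip* (1.05), *Npy* (0.834), *Pcsk1* (0.772) and *Crh* (0.540) were lowest, and each overlapped the next, *Pcsk1* and *Crh* by the narrowest margin. The interneuron peptides *Npy*, *Sst* and *Vip* varied more between naive mPFC libraries than *Chgb* or *Cck* did, with *Sst* at 12.1, 13.8 and 7.50 CPM.

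The question of the CFC comparisons is which genes change in nuclear RNA soon after conditioning, against mice left in the home cage. No RNA group had the chamber without shocks, so the new chamber, the shocks and learning cannot be told apart. In mPFC NeuN+ nuclei 4 of the 10 genes rose at both times, and the genes were the convertase *Pcsk1*, the granins *Vgf* and *Chgb*, and *Cck*. Of all 12987 genes tested there, 8.19% were called higher at CFC10 and 13.1% at CFC30. In HIP NeuN+ nuclei *Cck* rose at CFC10 and *Pcsk1* at CFC30, where 2.72% and 4.67% of 12429 genes were called higher. *Npy*, *Sst*, *Vip* and *Crh*, the precursors typical of interneurons, were called at neither time in either region.

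**Figure D1:**
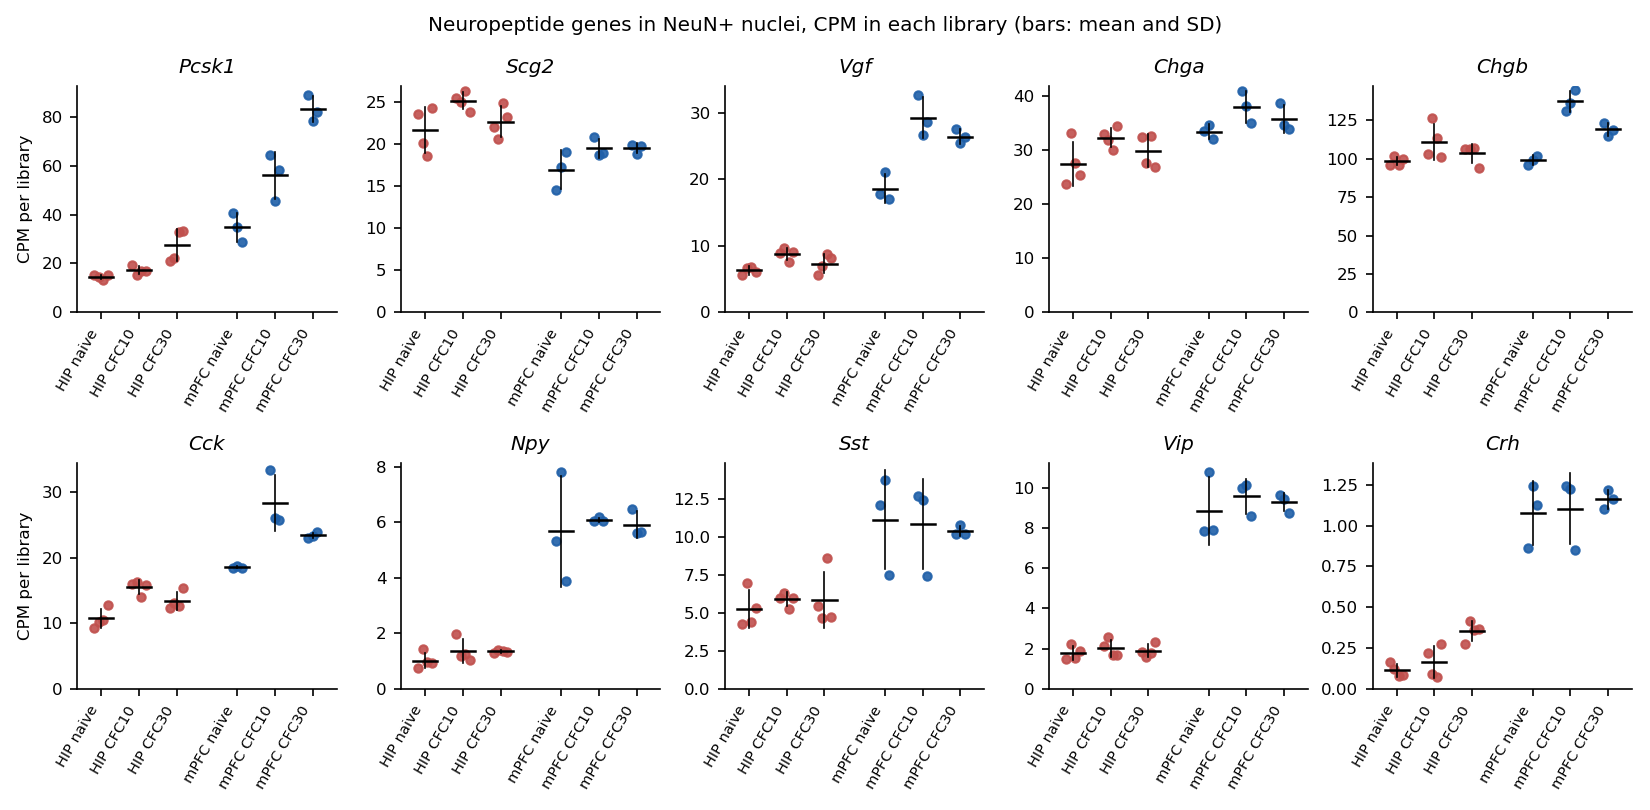
CPM of each of the 10 genes (vertical axis, linear, from 0, scaled per gene) in every NeuN+ library of HIP (red) and mPFC (blue) for naive, CFC10 and CFC30, with horizontal bars for the mean and vertical bars for the SD. *Pcsk1* climbed from naive to CFC10 to CFC30 in mPFC, while *Cck*, *Vgf* and *Chgb* had their highest mean at CFC10.

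*Pcsk1* (chr13:75089826-75134861, plus strand, 45036 bases of which 12.4% are exonic) encodes proprotein convertase 1, which cuts many peptide precursors in dense core vesicles. In mPFC NeuN+ nuclei it measured 40.7, 34.9 and 28.7 CPM in the naive libraries, 64.3, 45.5 and 58.1 at CFC10 and 88.8, 78.4 and 82.0 at CFC30. All CFC10 libraries were above all naive ones, and all CFC30 libraries above both. Expressed as a log2 fold change this was 0.68 (SE 0.11, adjusted p = 0.000102) at CFC10 and 1.28 (SE 0.10, adjusted p = 7.32e-09) at CFC30, a 2.43-fold rise. From CFC10 to CFC30 it rose further by 0.60 (SE 0.10, adjusted p = 0.00149), the sole gene of the 10 called between the times in mPFC, where 1.29% of 12987 genes tested were called and 6.41% lay wholly higher. With DESeq2 that step had an adjusted p of 0.0526.

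In HIP NeuN+ nuclei *Pcsk1* measured 15.1, 14.3, 13.3 and 15.3 CPM in naive libraries, 19.4, 15.3, 17.1 and 17.1 at CFC10 and 21.1, 22.4, 33.0 and 33.3 at CFC30. The CFC30 libraries lay above every other library and fell into a lower and an upper pair, while CFC10 overlapped naive by the narrowest margin. Against naive the log2 fold change was 0.22 (SE 0.13, adjusted p = 0.368) at CFC10, 0.91 (SE 0.12, adjusted p = 0.000146) at CFC30, and 0.69 (SE 0.12, adjusted p = 0.00700) from CFC10 to CFC30, where 0.298% of 12429 genes were called and 1.42% lay wholly higher. The other genes tested lay between -0.23 (*Vgf*) and 0.03 (*Sst*) from CFC10 to CFC30 in HIP, with adjusted p of 0.514 or more. A list of activity-induced transcription factors and effectors (*Fos*, *Npas4*, *Arc* and others) was also chosen with earlier results of these data known. Most of its genes moved the other way between the times in mPFC. From CFC10 to CFC30 12 of 21 tested fell and 1 (*Homer1*) rose there, and in HIP 7 of 20 fell and *Homer1* again rose.

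*Vgf* (chr5:137026392-137033351, plus strand) encodes a neurotrophin-responsive granin-like precursor. In mPFC NeuN+ nuclei it measured 17.7, 21.1 and 17.0 CPM in naive libraries, 32.7, 26.6 and 28.5 at CFC10 and 27.5, 25.4 and 26.4 at CFC30. Both CFC groups lay wholly above naive. Log2 fold changes were 0.65 (SE 0.09, adjusted p = 2.33e-05) and 0.52 (SE 0.09, adjusted p = 0.000114), and the step between the times, -0.12 (SE 0.08, adjusted p = 0.548), did not pass. In HIP it measured 5.59, 6.74, 6.88 and 6.00 CPM in naive and 8.87, 9.61, 7.50 and 9.14 at CFC10, without overlap. Its log2 fold change of 0.43 (SE 0.13, adjusted p = 0.0514) missed the threshold, and without CFC10 replicate 3 it was 0.50 (adjusted p = 0.0474). At CFC30 the value was 0.20 (SE 0.13, adjusted p = 0.383) and the groups overlapped.

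*Chgb* (chr2:132781278-132795079, plus strand) encodes chromogranin B, an abundant vesicle matrix protein. In mPFC NeuN+ nuclei it measured 95.8, 99.5 and 102.1 CPM in naive libraries, 131.1, 136.3 and 144.9 at CFC10 and 123.4, 114.8 and 119.1 at CFC30. The 3 groups did not overlap and CFC10 was highest. The log2 fold change was 0.47 (SE 0.05, adjusted p = 2.50e-06) at CFC10 and 0.28 (SE 0.05, adjusted p = 0.000407) at CFC30, and the difference between the times was -0.19 (SE 0.05, adjusted p = 0.0860), or -0.22 (adjusted p = 0.0242) without CFC10 replicate 1. In HIP the means were 98.6 ± 2.90, 111.0 ± 11.9 and 103.5 ± 6.46 CPM (SD, n = 4) at naive, CFC10 and CFC30. These overlapped. The log2 difference from naive was 0.13 at CFC10 (adjusted p = 0.239) and 0.06 at CFC30 (adjusted p = 0.629).

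*Scg2* (chr1:79434669-79440120, minus strand), the precursor of secretoneurin, and *Chga* (chr12:102554969-102565028, plus strand), chromogranin A, were called at neither time in either region. In mPFC *Scg2* measured 14.6, 17.3 and 19.1 CPM in naive, 20.8, 18.8 and 19.0 at CFC10 and 20.0, 18.8 and 19.8 at CFC30, and the groups overlapped through the highest naive library. Its log2 fold change was 0.19 (adjusted p = 0.175) and 0.22 (SE 0.09, adjusted p = 0.0840), and without naive replicate 3 the CFC30 value was 0.31 (adjusted p = 0.0218). *Chga* in mPFC measured 33.5, 34.8 and 32.1 CPM in naive against 40.9, 38.3 and 35.0 at CFC10, a narrow separation with a log2 fold change of 0.18 (SE 0.07, adjusted p = 0.0960). In HIP at CFC10 the values were 0.18 (adjusted p = 0.183) for *Scg2* and 0.19 (adjusted p = 0.191) for *Chga*, the latter passing at 0.29 (adjusted p = 0.0398) without naive replicate 2, the highest naive library.

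*Cck* (chr9:121489824-121495694, minus strand), the cholecystokinin precursor, is made both by pyramidal neurons and by a class of basket cells. In mPFC NeuN+ nuclei it measured 18.4, 18.8 and 18.5 CPM in naive libraries, 33.3, 26.0 and 25.8 at CFC10 and 23.0, 23.4 and 23.9 at CFC30. The naive libraries were tightly grouped and all CFC libraries lay above them, with 1 CFC10 library well above the other two. Log2 fold changes were 0.60 (SE 0.09, adjusted p = 4.50e-05) and 0.36 (SE 0.09, adjusted p = 0.00486). CFC30 lay wholly below CFC10, as did 11.1% of genes, but the difference of -0.25 (SE 0.08, adjusted p = 0.154) was not called.

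In HIP NeuN+ nuclei *Cck* measured 9.34, 10.3, 10.6 and 12.8 CPM in naive libraries, 16.1, 16.3, 14.0 and 15.9 at CFC10 and 12.3, 13.1, 12.7 and 15.4 at CFC30. CFC10 lay wholly above naive, and CFC30 overlapped it through naive replicate 4. The log2 fold change was 0.50 (SE 0.10, adjusted p = 0.00543) at CFC10 and 0.30 (SE 0.10, adjusted p = 0.0596) at CFC30. Without naive replicate 4 the CFC30 value was 0.39 (adjusted p = 0.0225), and without CFC30 replicate 1 it was 0.35 (adjusted p = 0.0393).

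The other precursors overlapped between the groups in NeuN+ nuclei. *Npy* (chr6:49822710-49829507, plus strand), the neuropeptide Y precursor, went from 5.67 ± 1.98 CPM in naive mPFC (SD, n = 3) to 6.08 ± 0.0818 at CFC10, and its log2 fold change of 0.10 had an approximate 95% interval from -0.23 to 0.44. *Sst* (chr16:23889573-23890958, minus strand) went from 11.1 ± 3.25 to 10.9 ± 2.98, with a log2 fold change of -0.03 (interval -0.36 to 0.30). *Vip* (chr10:5639218-5647617, plus strand), vasoactive intestinal peptide, went from 8.84 ± 1.68 to 9.57 ± 0.852, with 0.11 (interval -0.13 to 0.35). At CFC30 in mPFC the log2 fold changes of these genes lay between -0.07 (*Sst*) and 0.09 (*Vip*), and in HIP between 0.05 (*Vip* at CFC30) and 0.34 (*Npy* at CFC30, adjusted p = 0.455). The CFC10 intervals do not exclude a rise as large as that of *Chgb* at CFC30 (0.28) in *Npy*, *Sst* or *Vip* in mPFC, nor does that of *Npy* at CFC30 in HIP, which ran from -0.16 to 0.84. *Npy* passed the FPKM threshold in HIP only through CFC10, where its mean was 0.201.

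*Crh* (chr3:19693401-19695396, minus strand), corticotropin-releasing hormone, starts the hormonal stress response and is made by some cortical and hippocampal interneurons. In mPFC NeuN+ nuclei it measured 0.861, 1.24 and 1.13 CPM in naive libraries and 1.10, 1.22 and 1.16 at CFC30, with a log2 fold change of 0.12 (SE 0.29, adjusted p = 0.816). In HIP NeuN+ nuclei it was under the FPKM threshold in every group. The counts there were 2, 2, 1 and 1 in naive libraries, 3, 1, 1 and 5 at CFC10 and 4, 5, 5 and 5 at CFC30. The CFC30 counts lay above all naive ones, yet in a fit of all genes without the threshold the difference was not called (adjusted p = 0.238), and counts this low set no size.

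**Figure D2:**
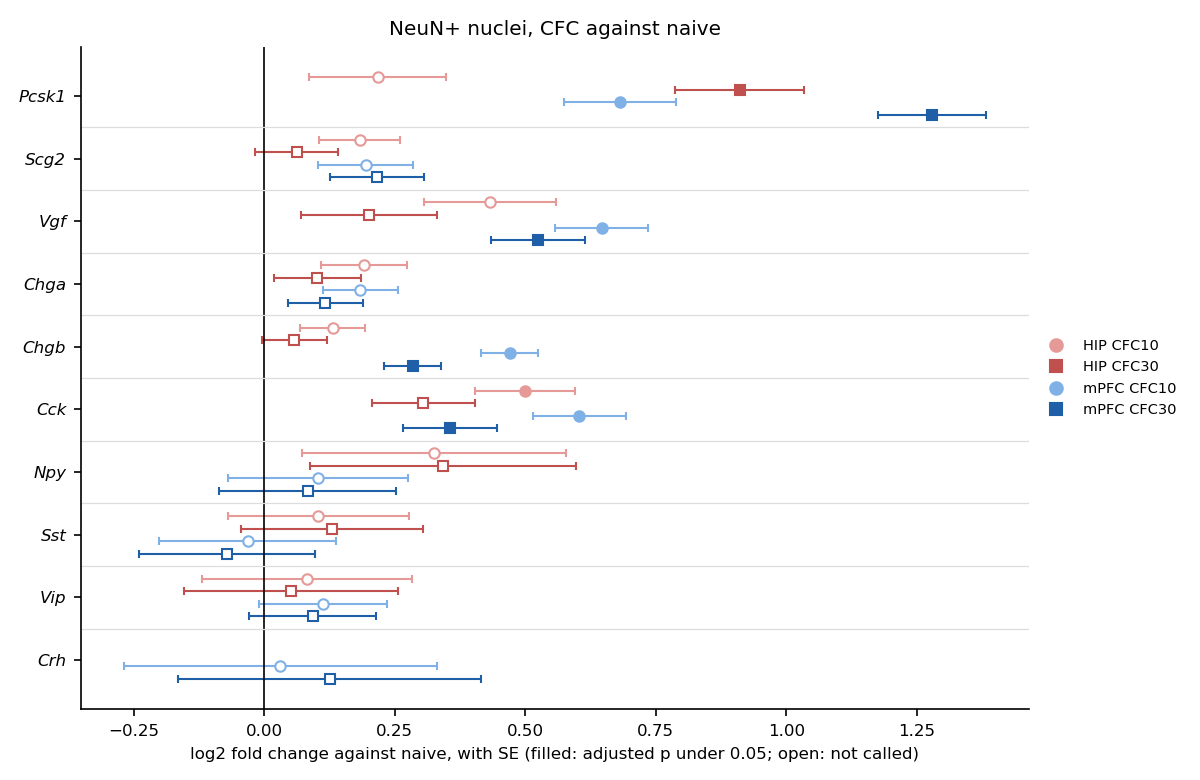
Log2 fold change against naive (horizontal axis) with its SE (bars) for each gene in NeuN+ nuclei of HIP (red) and mPFC (blue) at CFC10 (circles) and CFC30 (squares), filled where called. Filled points are *Pcsk1*, *Vgf*, *Chgb* and *Cck* in mPFC, and *Cck* at CFC10 and *Pcsk1* at CFC30 in HIP, and *Crh* was not tested in HIP.

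Counted over the list, 4 of 10 genes were called in mPFC NeuN+ nuclei at each time, all higher, where 14.4% of 12987 genes were called at CFC10 (8.19% higher) and 24.7% at CFC30 (13.1% higher). In HIP NeuN+ nuclei 1 of 9 tested was called at CFC10 and 1 of 9 at CFC30, where 4.86% and 8.56% of 12429 genes were called (2.72% and 4.67% higher). The median log2 fold change of the list was 0.19 at CFC10 and 0.17 at CFC30 in mPFC, and 0.19 and 0.13 in HIP, beside medians of all genes of 0.01, -0.00, 0.00 and -0.00. The libraries of 5 genes lay wholly above naive in mPFC at CFC10 (the called genes and *Chga*) and those of 4 at CFC30, as did those of 15.7% and 17.9% of genes tested. In HIP this held for 2 of the 9 tested at CFC10 (*Vgf* and *Cck*) and for *Pcsk1* at CFC30, against 8.87% and 7.96%. The times share their naive libraries, so their values are not independent. The genes were chosen with earlier results of these data known, so these counts and shares are no test of the list.

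Marker levels also moved in these NeuN+ libraries. In mPFC the summed CPM of 8 oligodendrocyte markers was 65.4 to 87.7 in naive, 120.6 to 156.3 at CFC10 and 118.8 to 183.9 at CFC30, with *Mbp* called of 2 tested. That of 8 astrocyte markers was 611.0 to 661.4, 670.7 to 749.2 and 709.3 to 716.9, with *Slc1a2* called of 3 tested at both times. That of 8 striatal projection neuron markers was 1416.03 to 1578.85, 2127.48 to 2885.04 and 2506.12 to 2736.79, with *Pde10a* called of 5 tested at CFC10 and *Pde10a*, *Rgs9* and *Ppp1r1b* at CFC30. None of these CFC sums overlapped naive. Excitatory neuron markers summed to 1304.68 to 1386.62, 1403.85 to 1524.5 and 1412.11 to 1450.75, again without overlap. Neuron markers summed to 6208.93 to 6451.09, 6202.37 to 6562.93 and 6025.23 to 6172.15, the CFC30 sums being below naive although 2 of the 8 markers were called higher and 1, *Syt1*, lower. Inhibitory neuron markers summed to 2064.92 to 2223.6, 1895.21 to 2047.73 and 1989.7 to 2166.7, lower at CFC10 and overlapping naive at CFC30. That list was higher still in naive mPFC NeuN- libraries (2367.79 to 2480.54), so its sum does not mark the NeuN+ fraction. In HIP NeuN+ the excitatory sum was 1319.32 to 1337.02 in naive, 1425.95 to 1525.62 at CFC10 and 1342.06 to 1566.27 at CFC30, with *Slc17a7* called of 8 tested at both times, and the striatal sum 953.827 to 1064.61, 1188.07 to 1386.38 and 1252.45 to 1407.34, with *Pde10a* called of 3. The part of these shifts in the rise of *Pcsk1*, *Vgf*, *Chgb* and *Cck* was not tested. In sorted bulk nuclei, more cells that make a peptide and more RNA in each of them cannot be told apart.

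The difference between the regions was tested directly as an interaction over the NeuN+ libraries of both, and 0 of 10 genes were called at either time, where 0.756% and 2.29% of 13756 genes were. At CFC10 the effect in mPFC exceeded that in HIP by 0.33 for *Chgb* (log2, SE 0.09, adjusted p = 0.0870, 95% interval 0.15 to 0.50) and by 0.45 for *Pcsk1* (SE 0.19, adjusted p = 0.452). At CFC30 the values were 0.23 for *Chgb* (adjusted p = 0.232) and 0.37 for *Pcsk1* (SE 0.19, adjusted p = 0.415). At an unadjusted p under 0.05 stood 2 of the 10 at each time (*Pcsk1* and *Chgb*, then *Chgb* and *Crh*), and DESeq2 called 0. The other genes lay between -0.52 (*Crh*) and 0.20 (*Vgf*) at CFC10 and between -1.40 (*Crh*, with 1 to 5 counts per HIP library) and 0.32 (*Vgf*) at CFC30. Without HIP CFC10 replicate 2 the *Chgb* difference at CFC10 was 0.40 (adjusted p = 0.00931). Region and kit version cannot be told apart in these differences.

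In NeuN- nuclei the genes were low and 0 of 6 tested were called against naive at either time in either region. Called genes made up 0.345% of 14802 at CFC10 and 2.38% at CFC30 in HIP, and 1.71% of 14869 and 5.84% in mPFC. *Pcsk1*, *Npy*, *Vip* and *Crh* were under the FPKM threshold there. DESeq2 also called 0, and of the 6 tested only *Sst* in mPFC at CFC10 had an unadjusted p under 0.05. In HIP the log2 fold changes ran from -0.04 (*Chgb*) to 0.48 (*Vgf*) at CFC10 and from -0.10 (*Chgb*) to 0.68 (*Vgf*) at CFC30, with *Scg2*, *Chga*, *Cck* and *Sst* between. In mPFC those of *Scg2*, *Vgf*, *Chga*, *Chgb* and *Cck* lay between -0.17 (*Cck*) and 0.14 (*Chgb*) at CFC10 and between -0.17 (*Cck*) and 0.24 (*Scg2*) at CFC30. From CFC10 to CFC30 0 of 6 were called in either region by edgeR or DESeq2, none at an unadjusted p under 0.05, where 0.169% of genes were called in HIP and 0.699% in mPFC. *Sst* in mPFC NeuN- nuclei measured 3.04, 2.21 and 2.74 CPM in naive libraries, 1.05, 1.75 and 1.47 at CFC10 and 1.56, 2.37 and 1.81 at CFC30. All CFC10 libraries were below all naive ones, as were 11.9% of genes tested, and the log2 fold change was -0.89 (SE 0.26, adjusted p = 0.104). At CFC30 it was -0.45 (adjusted p = 0.347) and the groups overlapped. Summed neuron markers were 145.539 to 362.854 CPM in the naive and 191.322 to 295.947 in the CFC10 libraries.

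*Pcsk1* in HIP NeuN- nuclei measured 1.80, 2.01 and 1.48 CPM in naive libraries, 1.50, 1.59, 1.25 and 1.46 at CFC10 and 2.02, 2.85, 2.03 and 2.15 at CFC30. All CFC30 libraries stood above all naive ones, the lowest by a narrow margin, as did 8.05% of genes tested, and in a fit without the threshold the adjusted p was 0.668. The CFC30 libraries also lay wholly above CFC10. Without the threshold that step had a log2 fold change of 0.67 (adjusted p = 0.477, unadjusted 0.0111) and was not called. In mPFC NeuN- it measured 1.91, 1.32 and 2.55 CPM in naive and 2.01, 2.81 and 3.79 at CFC30, with overlap and an adjusted p of 0.270 without the threshold (unadjusted 0.0240). *Crh* in mPFC NeuN- nuclei had 0, 0 and 0 counts in naive, 1, 3 and 3 at CFC10 and 0, 4 and 0 at CFC30, and without the threshold the CFC10 difference had an adjusted p of 0.278 (unadjusted 0.0172). *Npy* had 6 to 15 counts and *Vip* 1 to 11 in these mPFC libraries, and 2 to 7 and 0 to 3 in the HIP ones. The CFC30 effect in NeuN- minus that in NeuN+ was -0.58 for *Pcsk1* in HIP (95% interval -1.17 to 0.02, adjusted p = 0.617) and -0.68 in mPFC (-1.38 to 0.03, adjusted p = 0.389). Of 9 genes tested in HIP and 10 in mPFC 0 were called for this difference, where 0.293% of 16048 and 4.18% of 16560 genes were, and DESeq2 called 0 too. At an unadjusted p under 0.05 stood 0 in HIP and *Crh* alone in mPFC, whose naive NeuN- libraries all had a count of 0. The other genes lay between -0.78 (*Npy*) and 0.46 (*Vgf*) in HIP and between -0.53 (*Cck*) and 0.26 (*Vip*) in mPFC.

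Other genes of the route, from lists of processing enzymes, vesicle genes, receptors and further precursors, are given for context. Of 16 other processing genes, 13 were tested in mPFC NeuN+, 2 rose and 3 fell at CFC10, and 2 rose and 5 fell at CFC30. Carboxypeptidase E (*Cpe*), which trims peptide ends, rose by 0.31 (adjusted p = 0.000401) and 0.41 (adjusted p = 7.44e-06). The second neuronal convertase *Pcsk2* fell by 0.17 (adjusted p = 0.0248) and 0.23 (adjusted p = 0.00144), and *Pcsk1n*, the precursor of the *Pcsk1* inhibitor proSAAS, fell by 0.34 at CFC10 (adjusted p = 0.0167). *Pcsk5* was also called lower at CFC10. DESeq2 called 3 of the 13 genes at CFC10, against 5 by edgeR. For this list and those below, 14.4% of the 12987 genes tested in mPFC NeuN+ were called at CFC10 (8.19% higher). At CFC30 the share was 24.7% (13.1% higher). For the same lists in HIP NeuN+ the shares were 4.86% of 12429 genes at CFC10 and 8.56% at CFC30. Of the processing genes, 0 of 12 were called in HIP NeuN+ at CFC10 by edgeR or DESeq2, 1 having an unadjusted p under 0.05. At CFC30 1 fell (*Mbtps1*, -0.21, adjusted p = 0.00671).

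Of 18 other granin and dense core vesicle genes, 17 were tested in mPFC NeuN+, 4 rose and 1 fell at CFC10, and 7 rose and 2 fell at CFC30. The vesicle membrane protein *Ptprn* rose by 0.40 (adjusted p = 0.000241) and 0.58 (adjusted p = 1.05e-06), and the Rab3 effector *Rph3a* by 0.29 (adjusted p = 0.00362) and 0.59 (adjusted p = 4.76e-07). *Ptprn* was also the gene called of 18 in HIP NeuN+ at CFC30, at 0.26 (adjusted p = 0.00339), and at CFC10 it was the vesicle calcium protein *Syt4*, at 0.36 (adjusted p = 0.0317). Of 24 receptor genes, 16 were tested in mPFC NeuN+, 3 rose at CFC10 and 3 rose and 3 fell at CFC30. The somatostatin receptor *Sstr2* rose by 0.99 (SE 0.16, adjusted p = 0.000121) and 0.81 (adjusted p = 0.000594), and the VIP receptor *Vipr1* by 0.34 and 0.33, while their ligands *Sst* and *Vip* were not called. In HIP NeuN+ 0 of 13 receptors were called at CFC10 by edgeR or DESeq2, 4 having an unadjusted p under 0.05, and 1 fell at CFC30 (*Npy2r*, -0.33, adjusted p = 0.0499). DESeq2 called 0 of the 10 receptors to which it gave an adjusted p at CFC30.

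Of 32 other peptide precursors, among them *Penk* and *Adcyap1*, just 6 passed the FPKM threshold in mPFC NeuN+ and 0 were called at either time by edgeR or DESeq2, with 0 and 1 at an unadjusted p under 0.05. In HIP NeuN+ 5 were tested and 1, the gastrin-releasing peptide precursor *Grp*, rose at CFC30 (0.44, SE 0.13, adjusted p = 0.0382), a call that DESeq2 did not make. For scale, 20 of 21 activity-induced genes tested in mPFC NeuN+ rose at CFC10 with a median log2 fold change of 2.44, and 16 of 20 in HIP NeuN+ with a median of 1.02. At CFC30 the medians were 1.65 and 0.59, so that *Pcsk1* at 0.91 in HIP lay above that list's median and at 1.28 in mPFC below it.

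**Figure D3:**
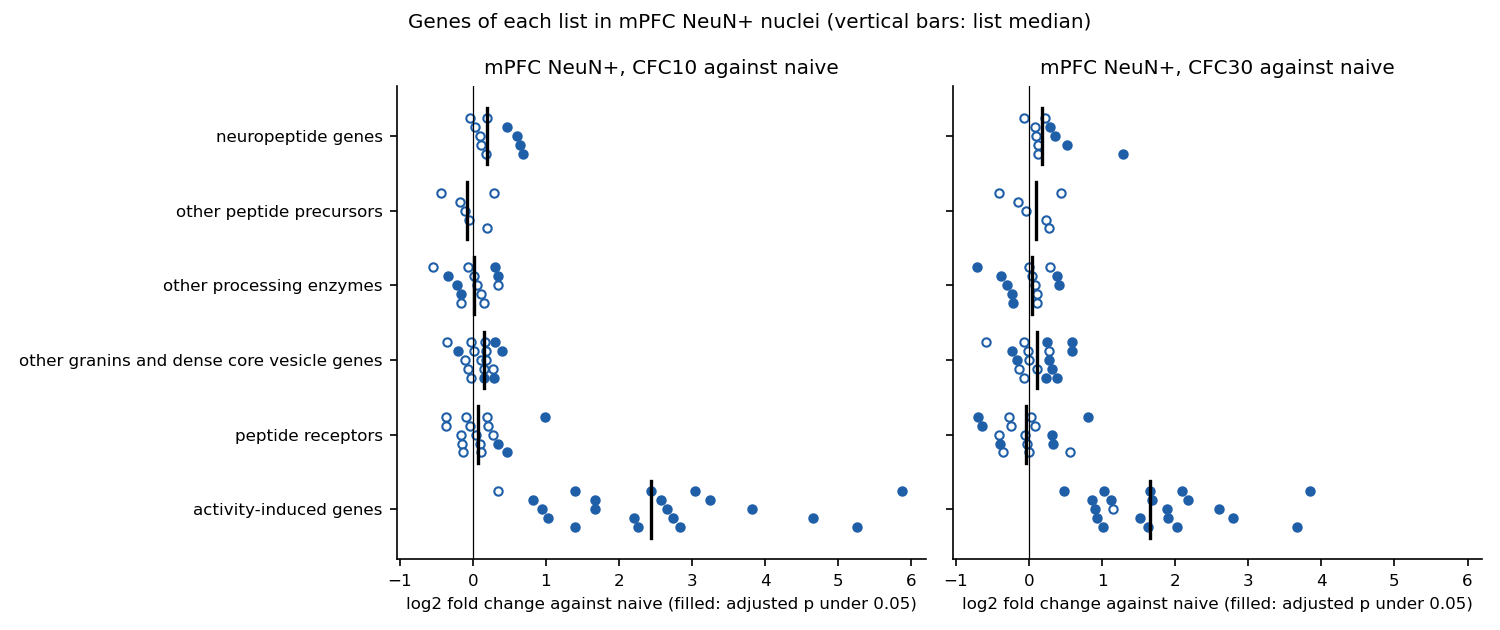
Log2 fold change against naive (horizontal axis) of each tested gene of 6 lists in mPFC NeuN+ nuclei at CFC10 (left) and CFC30 (right), 1 point a gene, filled where called, with a vertical bar at the list's median. The neuropeptide genes have medians of 0.19 and 0.17, and the activity-induced genes 2.44 and 1.65.

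Peaks of γH2AX were deposited as 282 intervals for HIP and 260 for mPFC, with naive and CFC30 peaks combined and called on merged replicates, so no change with CFC can be tested from them. In HIP, 1 of the 10 gene bodies had a peak, against 4.15% of the 12429 genes tested in NeuN+ nuclei there, at *Vgf* (chr5:137030310-137034800). It covered 43.7% of the gene and ran 1449 bases past the 3′ end. In mPFC 2 of the 10 had one, against 3.99% of 12987 genes. A longer interval at *Vgf* (chr5:137028658-137039068) covered 67.4% of the gene, ran 5717 bases past its 3′ end and also took in *Ap1s1*. The mPFC interval at *Cck* (chr9:121487080-121496163) covered the whole gene with 469 bases before its start and 2744 past its end. Both genes with an mPFC peak rose in mPFC NeuN+ nuclei at both times. *Pcsk1* and *Chgb*, which rose there too, had none in these intervals. Of the other lists, *Cpe* had a peak in HIP, *Pcsk2*, *Ptprn* and *Cckbr* in mPFC, and *Snap25* and *Rab3a* in both. Activity-induced genes had peaks in 7 of 22 in HIP and 11 of 22 in mPFC, glucocorticoid-induced genes in 8 of 12 and 5 of 12, and other peptide precursors in 0 of 32 in each. Gene length was not matched in these counts.

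Levels in the NeuN- fraction were compared with NeuN+ in naive mice. In HIP, *Scg2*, *Chga*, *Chgb*, *Cck* and *Sst* were above the FPKM threshold in both fractions, and all 5 were lower in NeuN- nuclei, where 35.7% of 15315 genes tested were lower. The log2 fold change was -3.14 for *Cck* (SE 0.16) and -2.47 for *Chgb* (SE 0.12), and *Sst* had the smallest difference (adjusted p = 3.23e-07). In mPFC the same genes and *Vgf* were above it in both fractions, and all 6 were lower, where 35% of 15650 genes were, from -3.40 (*Vgf*, SE 0.23) to -2.56 (*Sst*, SE 0.23). *Sst* had a NeuN- mean CPM of 34.0% of the NeuN+ mean in HIP and 23.9% in mPFC. These percentages use library totals, whereas the fold changes were fitted after TMM scaling of the libraries, so the sizes differ. The others passed only through NeuN+, where they are high, so that a difference was partly fixed by the threshold and only levels are given. *Pcsk1* had a mean FPKM of 0.322 in NeuN+ and 0.0391 in NeuN- nuclei of HIP, and of 0.772 and 0.0428 in mPFC. *Vip* had 0.213 and 0.0160 in HIP and 1.05 and 0.0400 in mPFC, *Vgf* 0.905 and 0.137 in HIP, and *Npy* 0.834 and 0.148 in mPFC. *Chgb* had means of 24.4 ± 7.57 CPM in HIP NeuN- (SD, n = 3) and 14.3 ± 5.32 in mPFC NeuN- (n = 3). Per length it ranked first in HIP NeuN-, at a mean FPKM of 1.77 ± 0.549 beside 1.29 ± 0.548 for *Sst*. In mPFC NeuN- *Sst* ranked first (1.92 ± 0.304) and *Chgb* next (1.03 ± 0.386). Summed neuron markers in these naive NeuN- libraries were 349.18 to 554.959 CPM in HIP and 145.539 to 362.854 in mPFC. The part of neuronal RNA in the NeuN- levels was not tested. *Crh* had 0 counts in each of the 3 naive mPFC NeuN- libraries, against 10, 15 and 14 counts in NeuN+.

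In the corticosterone experiment the other populations were set against NeuN+ nuclei of the same experiment. With saline, *Scg2*, *Vgf*, *Chga*, *Chgb*, *Cck* and *Sst* were above the FPKM threshold in every population, and all 6 were lower than in NeuN+ nuclei in GFAP+ (32.7% of 17285 genes were lower), in PU.1+ (35.4%) and in 3X- (31.2%). *Chga* was lowest against NeuN+ in GFAP+ (-1.65, SE 0.15) and PU.1+ (-2.16, SE 0.16), and *Scg2* in 3X- (-2.37, SE 0.19). *Pcsk1* and *Npy* passed only through NeuN+, so only levels are read from them. *Pcsk1* had saline means of 20.2, 5.53, 3.58 and 2.26 CPM in NeuN+, GFAP+, PU.1+ and 3X- nuclei, and *Npy* 1.44, 1.29 and 1.33 in the first 3 and a lower mean, under 1 CPM, in 3X-. Of these 6, *Sst* had the smallest difference in GFAP+ (-0.62, adjusted p = 0.0119) and PU.1+ (-0.57, adjusted p = 0.0173). Its saline libraries measured 8.45, 9.60, 9.79 and 10.5 CPM in NeuN+, 5.16, 5.06, 8.53 and 12.6 in GFAP+ and 8.99, 6.67, 12.7 and 8.02 in PU.1+, and these groups overlapped. Mean saline FPKM of *Sst* was 6.92 in NeuN+, 5.65 in GFAP+ and 6.56 in PU.1+, closer together than the fold changes read. Those were fitted after TMM scaling of the libraries, while CPM and FPKM use library totals. The PU.1+ call of *Sst* did not pass with DESeq2 (adjusted p = 0.0572) or without PU.1+ saline replicate 2 (adjusted p = 0.0645). Summed neuron markers in the saline libraries were 5077.37 to 5242.17 CPM in NeuN+, 980.281 to 1399.36 in GFAP+, 711.306 to 1075.46 in PU.1+ and 410.517 to 590.109 in 3X-. The part of neuronal RNA in the glial values was not tested.

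**Figure D4:**
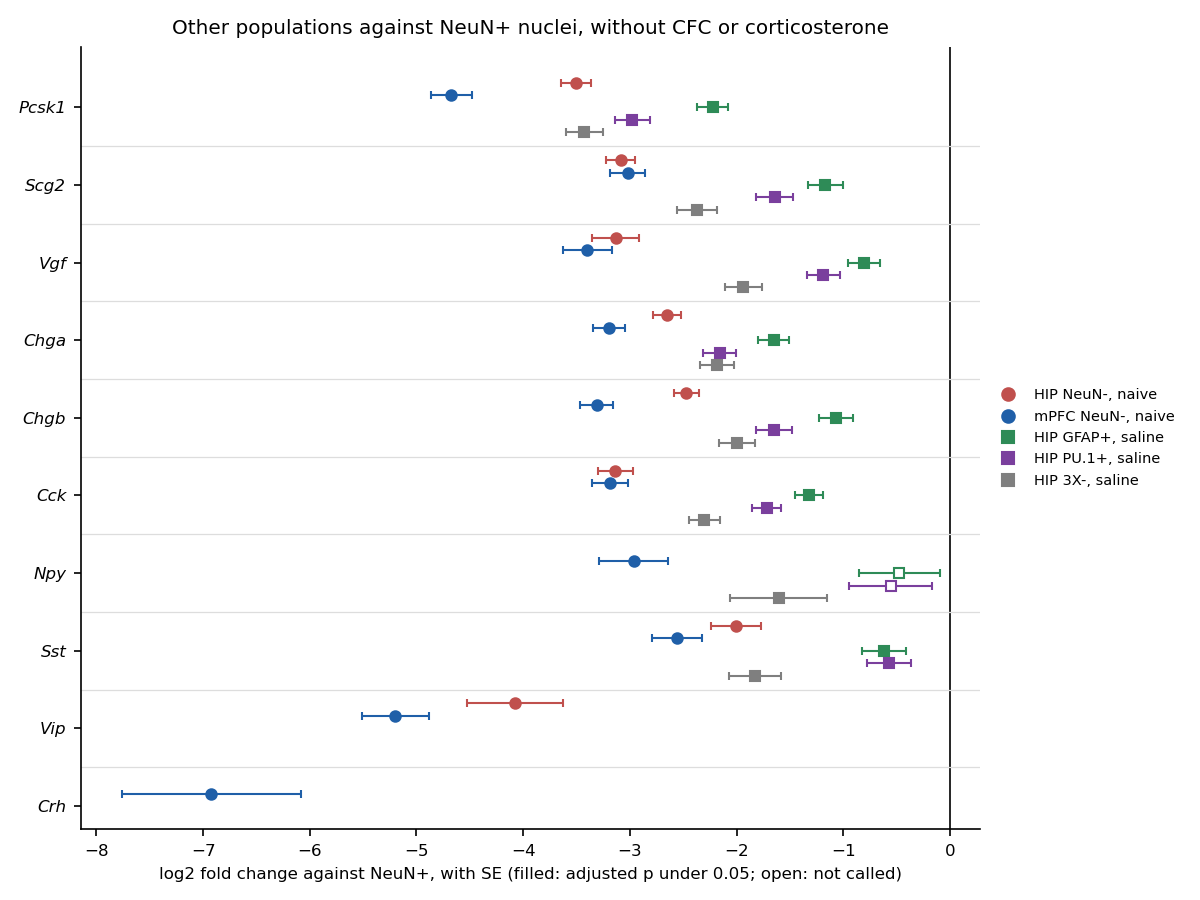
Log2 fold change against NeuN+ nuclei (horizontal axis) with its SE (bars) for naive NeuN- nuclei of HIP and mPFC (circles) and saline GFAP+, PU.1+ and 3X- nuclei of HIP (squares), filled where called. Every plotted point lies below 0, from -6.92 for *Crh* in mPFC NeuN- (its libraries are at 0 counts, so the fitted size is no bound) to -0.48 for *Npy* in GFAP+, and genes that passed the threshold only through NeuN+ had to lie low.

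The corticosterone comparison asked which genes respond to the injected stress hormone without CFC. It was given as a complex with HBC and the controls received saline, so the hormone and the rest of the complex cannot be told apart. Of 9 genes tested in NeuN+ nuclei 1 was called, *Cck*, which was lower, where 2.06% of 12666 genes were called (0.797% lower). It measured 17.6, 18.2, 14.8 and 16.7 CPM with saline and 11.8, 15.8, 12.6 and 12.3 with corticosterone. A single corticosterone library, replicate 2, lay within the saline range, and the other three lay below it. The log2 fold change was -0.34 (SE 0.10, adjusted p = 0.0450). The call was lost with DESeq2 (-0.34, adjusted p = 0.214), and the adjusted p lay between 0.0854 and 0.178 without saline replicate 1, 2 or 4 or corticosterone replicate 1, 3 or 4. The direction was lower in each of these. Summed excitatory neuron markers were 1625.16 to 1723.29 CPM with saline and 1589.44 to 1661.92 with corticosterone, and their part in the difference was not tested.

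*Pcsk1*, which rose at CFC30 in HIP NeuN+ nuclei, measured 20.6, 21.6, 16.4 and 22.4 CPM with saline and 22.3, 12.8, 22.9 and 18.6 with corticosterone. The corticosterone range took in the whole saline range, and the log2 fold change was -0.02 (SE 0.10, adjusted p = 0.966). The remaining genes in NeuN+ lay between -0.08 (*Chga*) and 0.41 (*Vip*, SE 0.26), with adjusted p of 0.612 or more. *Crh* had 0 to 3 counts per library with saline and 0 to 5 with corticosterone and was not tested.

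In GFAP+ nuclei 0 of 6 genes tested were called, in PU.1+ 0 of 7 and in 3X- 0 of 6, where 2.93%, 7.84% and 7.48% of 14529, 14279 and 14587 genes were. DESeq2 called 0 in each, and at an unadjusted p under 0.05 stood only *Chga* in 3X- nuclei, with a log2 fold change of 0.40 (SE 0.16, adjusted p = 0.163). *Cck* had 0.43 in GFAP+ (SE 0.21, adjusted p = 0.477), opposite in sign to NeuN+, with libraries of 8.20, 8.77, 8.31 and 9.09 CPM with saline and 5.81, 15.2, 10.5 and 13.5 with corticosterone. The first corticosterone library stood below all saline ones and the other three above, and without it the value was 0.62 (adjusted p = 0.0277). That library had the lowest neuron marker sum of the GFAP+ corticosterone libraries, 1029.4 CPM against 1278.94 to 1409.83. Its oligodendrocyte marker sum was the highest, 1474.83 against 653.88 to 771.721. The part of these marker levels in the *Cck* values was not tested. The difference between populations was not tested. *Sst* had 0.53 in GFAP+ (SE 0.28, adjusted p = 0.523), and *Scg2*, *Vgf*, *Chga* and *Chgb* lay between 0.16 and 0.28 there. In PU.1+ *Chgb* had 0.34 (SE 0.16, adjusted p = 0.285), *Cck* had 0.39, and *Scg2*, *Vgf*, *Chga*, *Npy* and *Sst* lay between -0.01 and 0.26. In 3X- nuclei *Scg2*, *Vgf*, *Chgb*, *Cck* and *Sst* lay between -0.30 (*Cck*) and 0.29 (*Sst*). Of 12 glucocorticoid-induced genes such as *Fkbp5* and *Sgk1*, 9 of 12 tested rose in GFAP+, 8 of 11 in PU.1+, 9 of 12 in 3X- and 4 of 9 in NeuN+ nuclei, where 1 fell.

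**Figure D5:**
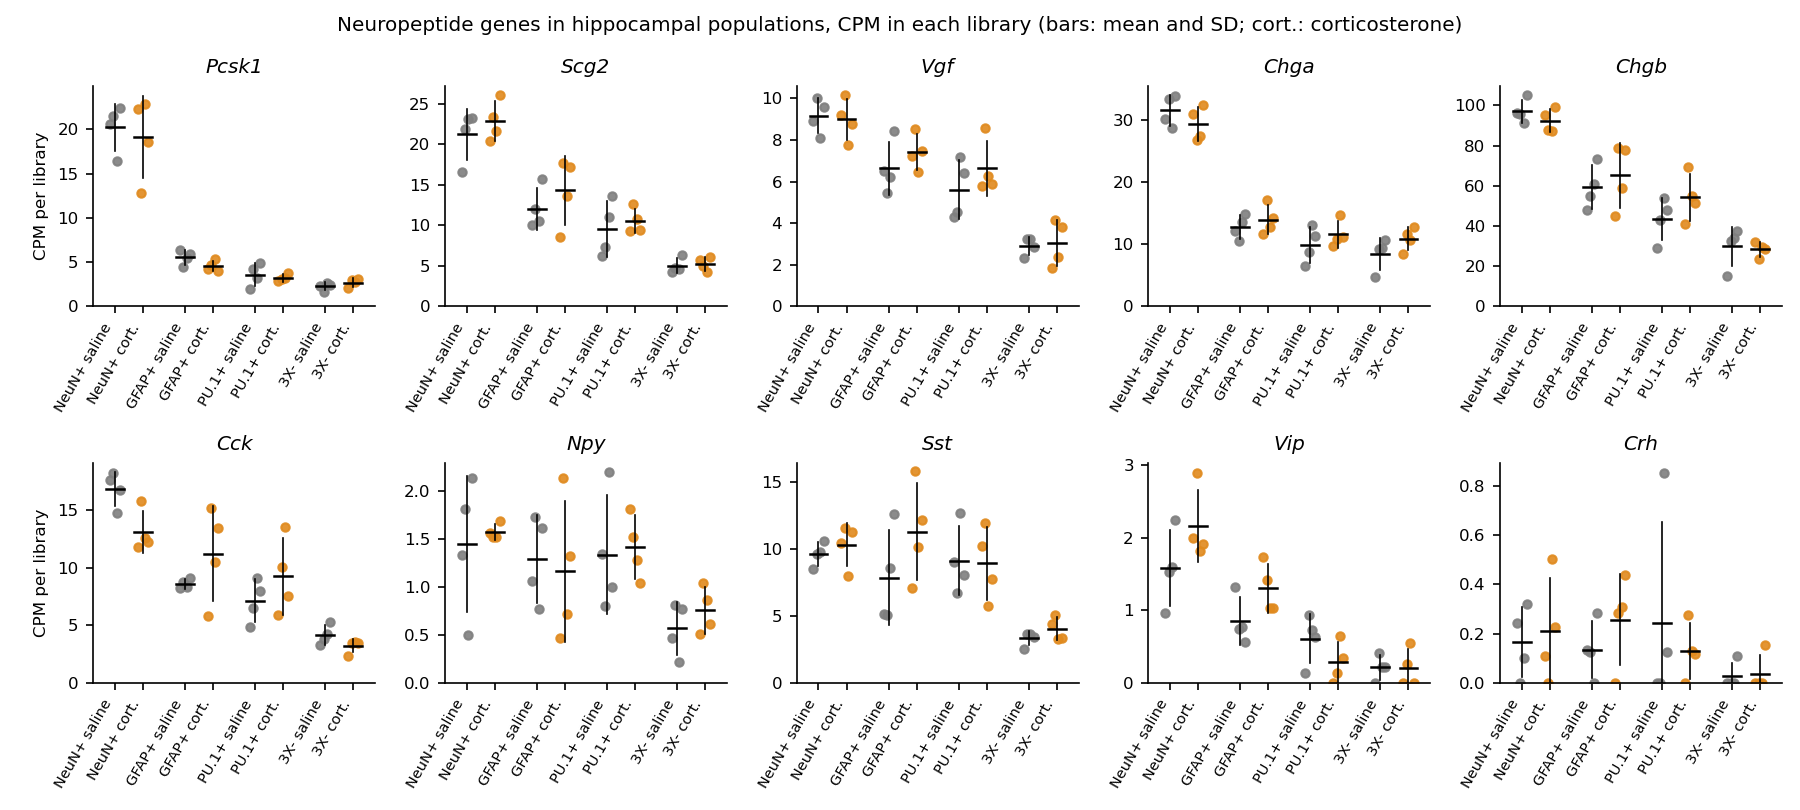
CPM of each of the 10 genes (vertical axis, linear, from 0, scaled per gene) in every saline (grey) and corticosterone (orange) library of the 4 hippocampal populations, with horizontal bars for the mean and vertical bars for the SD. *Cck* in NeuN+ nuclei averaged 16.8 with saline and 13.1 with corticosterone, and *Pcsk1* was highest in NeuN+ nuclei under both treatments.

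Of the other lists after corticosterone, 1 receptor of 13 fell in NeuN+ nuclei (*Sstr3*, -0.54, adjusted p = 0.0450), 1 vesicle gene of 18 rose (*Syt10*, 0.68, adjusted p = 6.70e-07) and 1 fell (*Rph3a*, -0.17, adjusted p = 0.0403). DESeq2 called 0 of the 8 receptors and 1 of the 16 vesicle genes to which it gave an adjusted p there. In 3X- nuclei the apelin precursor *Apln* rose by 1.00 (SE 0.16, adjusted p = 2.71e-05), from a mean of 4.03 to 7.75 CPM. The peptidase *Cpd* fell there (-0.26, adjusted p = 0.0246), and the vesicle gene *Ccdc186* rose in PU.1+ nuclei (0.24, adjusted p = 0.0170).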

How the data were processed

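The deposited RNA files hold counts per gene body, not normalized. Per the labels and methods, these counts were made by the authors with featureCounts over exons and introns together, after Trimmomatic trimming, HISAT2 alignment to GRCm38 (mm10) and duplicate removal (Picard, SAMtools). The strand setting and tool versions are not given in the sources used here. The deposited peaks are intervals without a score, which the authors made with Bowtie2, MACS2 and bedtools on merged, down-sampled replicates. Peaks of naive and CFC30 tissue are combined in them.

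Of 74 libraries 73 were used. The quasi-likelihood test of edgeR 4.0.16 (with limma 3.58.1) under TMM scaling and Benjamini-Hochberg adjustment was the main test, DESeq2 1.42.0 the alternative, both under R 4.3.3 with data.table (version 1.17.8). One fit was made for each region and fraction with all its groups, or for each population, and contrasts of contrasts tested interactions. Tables were handled in Python 3.11.15 with pandas 2.3.3 and NumPy 2.4.6, and plots drawn with matplotlib 3.10.9. The procedure was tested on simulated counts. A peak counted at an overlap of 1 base with a gene body.

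The rule names all 10 genes in each comparison, called or not. Genes that were not called are in part given together as a range, and those under the FPKM threshold by counts or levels where shown. Of each other list at most 4 called genes with the smallest adjusted p are named per comparison. The genes and lists were chosen with earlier results of these data known. CPM and FPKM use each library's total count. Replicate numbers were not fitted as pairs in the main test. Correlations of equal-numbered libraries ran from -0.249 to 0.377, mostly under 0.1, which cannot exclude pairing. The paper's gating took the populations in sequence from the same nuclei, so their libraries may share animals. Contrasts between fractions or populations treated the libraries as independent. Alternatives were RLE scaling, no threshold or an FPKM above 1, only the 2 groups compared, the identical library kept, a replicate block and leaving out each library.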

Additional observations from a re-analysis of the deposited data

Results flagged for a closer look

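In 8 of 129 groups of 4 libraries, 1 library stood apart from the other three by Dixon's criterion at 95%, where chance gives about 1 in 20. *Chgb* in HIP NeuN+ CFC30 replicate 4 was low at 93.9 CPM. In HIP NeuN- CFC30 replicate 2, *Pcsk1* (2.85 CPM) and *Chga* (8.37 CPM) were both high. That library also had the highest neuron marker sum of its group, 468.965 CPM against 314.087 to 423.159. The part of the marker level in these values was not tested. *Npy* was high in HIP NeuN- CFC10 replicate 3 at 0.546 CPM, which rests on 7 counts. *Cck* in 3X- corticosterone replicate 1 was low at 2.36 CPM. *Crh* was high in PU.1+ saline replicate 3 at 0.853 CPM from 7 counts, in 3X- saline replicate 4 at 0.110 CPM and in 3X- corticosterone replicate 4 at 0.152 CPM, both 3X- values from 1 count.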

How the results depend on the processing

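Of 2691 values of single genes recomputed under alternatives, 2660 kept their direction and their side of the threshold, 11 lost and 20 gained a call, and 0 changed direction while called. The 4 calls in mPFC NeuN+ nuclei at CFC10 and at CFC30 numbered 4 under every alternative, except 5 at CFC30 without naive replicate 3 (*Scg2* added). For HIP NeuN+ the count of 1 at CFC10 was 2 with no threshold, with a replicate block or with only the 2 groups (*Vgf* added, adjusted p = 0.00662, 0.0407 and 0.0192) and 1 to 2 with a library left out. The count of 1 at CFC30 was 2 with no threshold or with the block (*Cck* added, adjusted p = 0.0246 and 0.0313), 1 to 2 with a library left out, and 0 for genes with an FPKM above 1, which removes *Pcsk1* from the test. That threshold also made the HIP CFC30 against CFC10 count 0 and the count of genes lower in HIP NeuN- than NeuN+ 5, from 8 tested at the main threshold. From CFC10 to CFC30 in mPFC NeuN+ the count of 1 was 0 with DESeq2 and 1 to 2 with a library left out, where *Chgb* was added without CFC10 replicate 1 (adjusted p = 0.0242). After corticosterone the NeuN+ count of 1 was 0 with DESeq2 or an FPKM above 1 and 0 to 1 with a library left out. The count of 0 was 1 with no threshold in GFAP+ (*Sst*, adjusted p = 0.0151) and PU.1+ (*Chgb*, adjusted p = 0.000637), 1 with the replicate block in PU.1+ (*Chgb*, adjusted p = 0.0482) and 0 to 1 with a library left out in GFAP+. For the region difference the count of 0 was 2 with no threshold at CFC10 (*Pcsk1* and *Chgb*), 0 to 1 with a library left out, and 1 with no threshold at CFC30 (*Pcsk1*, adjusted p = 0.0120). Of the other lists in mPFC NeuN+, DESeq2 called 3 processing genes at CFC10 against 5 by edgeR, and 3 receptors at CFC30 against 6. The causes were not tested. The replicate block changed no other call. At an overlap of 50% of the gene body, 0 genes had a peak in HIP. Counts below about 5 per library limit *Crh* in HIP, and *Vip* in NeuN- and 3X- nuclei.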
